A study of Mus musculus with 7 samples.

Results

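Oxidative phosphorylation subunits were followed in fetal liver that lacks Pcbp2, the gene of a poly(C)-binding protein that regulates the stability, splicing and translation of messenger RNA. Members were the genes whose name in the authors' deposited table starts with Nduf, Sdh, Uqcr, Atp5, Cox4, Cox5, Cox6, Cox7 or Cox8, or with mt-Nd, mt-Co, mt-Atp or mt-Cytb. The rule used no fold change or p-value, but it was chosen with earlier results of these data known. It found 101 genes among the 15548 named there, out of 38924 counted. Counted genes of such names that the table leaves out, such as Cox6a2, Cox8b, mt-Atp8 and mt-Nd4l, are no members. Of these, 90 lie in the nuclear genome and 11 in the mitochondrial genome. The nuclear members are 36 subunits of complex I, 4 of complex II, 8 of complex III, 16 of complex IV and 15 of ATP synthase, called complex V, with 11 assembly factors or genes of related name. The mitochondrially encoded members are 6 subunits of complex I, 1 of complex III, 3 of complex IV and 1 of complex V.

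The libraries were strand-specific messenger RNA libraries of whole fetal liver at 12.5 days post coitum, 4 labelled wild type (replicates 1 to 4) and 3 labelled Pcbp2 knockout (replicates 3 to 5). The labels give no strain, sex, litter or batch, and the design of the deleted allele is not described in them. They do not say that replicates came from separate embryos, so p-values measure the spread between these samples, which may be technical. Reads assigned to genes ranged from 31898339 to 44544889 per library. Pcbp2 itself was at 165, 329, 347 and 338 CPM (reads of a gene scaled to a common library size) in wild type replicates 1 to 4 and at 2.24, 1.39 and 2.22 CPM in knockout replicates 3 to 5. The 3 knockout libraries were far below the 4 wild-type ones, among which replicate 1 was the lowest.

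Oxidative phosphorylation makes ATP at the inner mitochondrial membrane. Complexes I, III and IV pass electrons from NADH to oxygen and pump protons, complex II feeds in electrons from succinate, and ATP synthase uses the proton flow to make ATP. The cytochrome b of complex III, the catalytic core of complex IV, the membrane core of complex I and part of the proton channel of ATP synthase are encoded by mitochondrial DNA, so each of these complexes is built from the products of both genomes. Most nuclear subunits of complexes I, III and IV are small accessory proteins around that core. At this age the liver is the main site of red cell formation, and erythroblasts need mitochondria for haem synthesis before they lose them.

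Levels below are CPM after scaling by the trimmed mean of M values (TMM). Fold changes are log2 of knockout over wild type with their standard error, and each gene was tested with edgeR's quasi-likelihood test over all 16226 genes that passed the filter on low counts. A member was called when its Benjamini-Hochberg adjusted p was under 0.05. All 101 members passed the filter. Genes of such names with few reads, such as mt-Atp8 and mt-Nd4l, had already dropped out with the choice of the authors' table.

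Transcripts of 16 nuclear subunits were lower in knockout liver, 12 of them accessory subunits of complexes I, III and IV. The 14 nuclear core subunits of complexes I, II and III and the 11 mitochondrially encoded members gave 0 calls. Groups of this size can have 0 calls at the all-gene shares given below, so this shows no difference from other genes. Standard errors were 0.19 (mt-Co1) to 0.26 (mt-Nd2) in the measured mitochondrially encoded members and 0.09 (Ndufb10) to 0.18 (Atp5e) in the 16 called ones. Of the 101 members, 16 fell and 0 rose, all 16 of them nuclear subunits of complexes I, III, IV or V. Over all tested genes the same call rule gave 556 lower (3.43%) and 258 higher (1.59%). At an unadjusted p under 0.05, 38 members were lower and 1 was higher, beside 11.8% and 9.98% of all genes. In 36 members every knockout library lay below every wild-type library, and in 0 every knockout library lay above, beside 10.8% and 9.83% of all genes. The log2 fold change was below 0 in 78 members, beside 47.9% of all genes. Its median was -0.18 over the members and -0.21 over the 90 nuclear ones, beside 0.01 over all genes. No median is given for the 11 mitochondrially encoded ones, since 4 of them had too few reads to be measured. Among the others the log2 fold change ranged from -0.06 (mt-Co1) to 0.45 (mt-Nd2). The counts and the median over the 101 members include the 4 genes of few reads. In the authors' deposited table, 25 members were lower and 0 higher at an adjusted p under 0.05, the 16 included, beside 6.86% and 4.06% of the genes in that table.

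**Figure D1:**
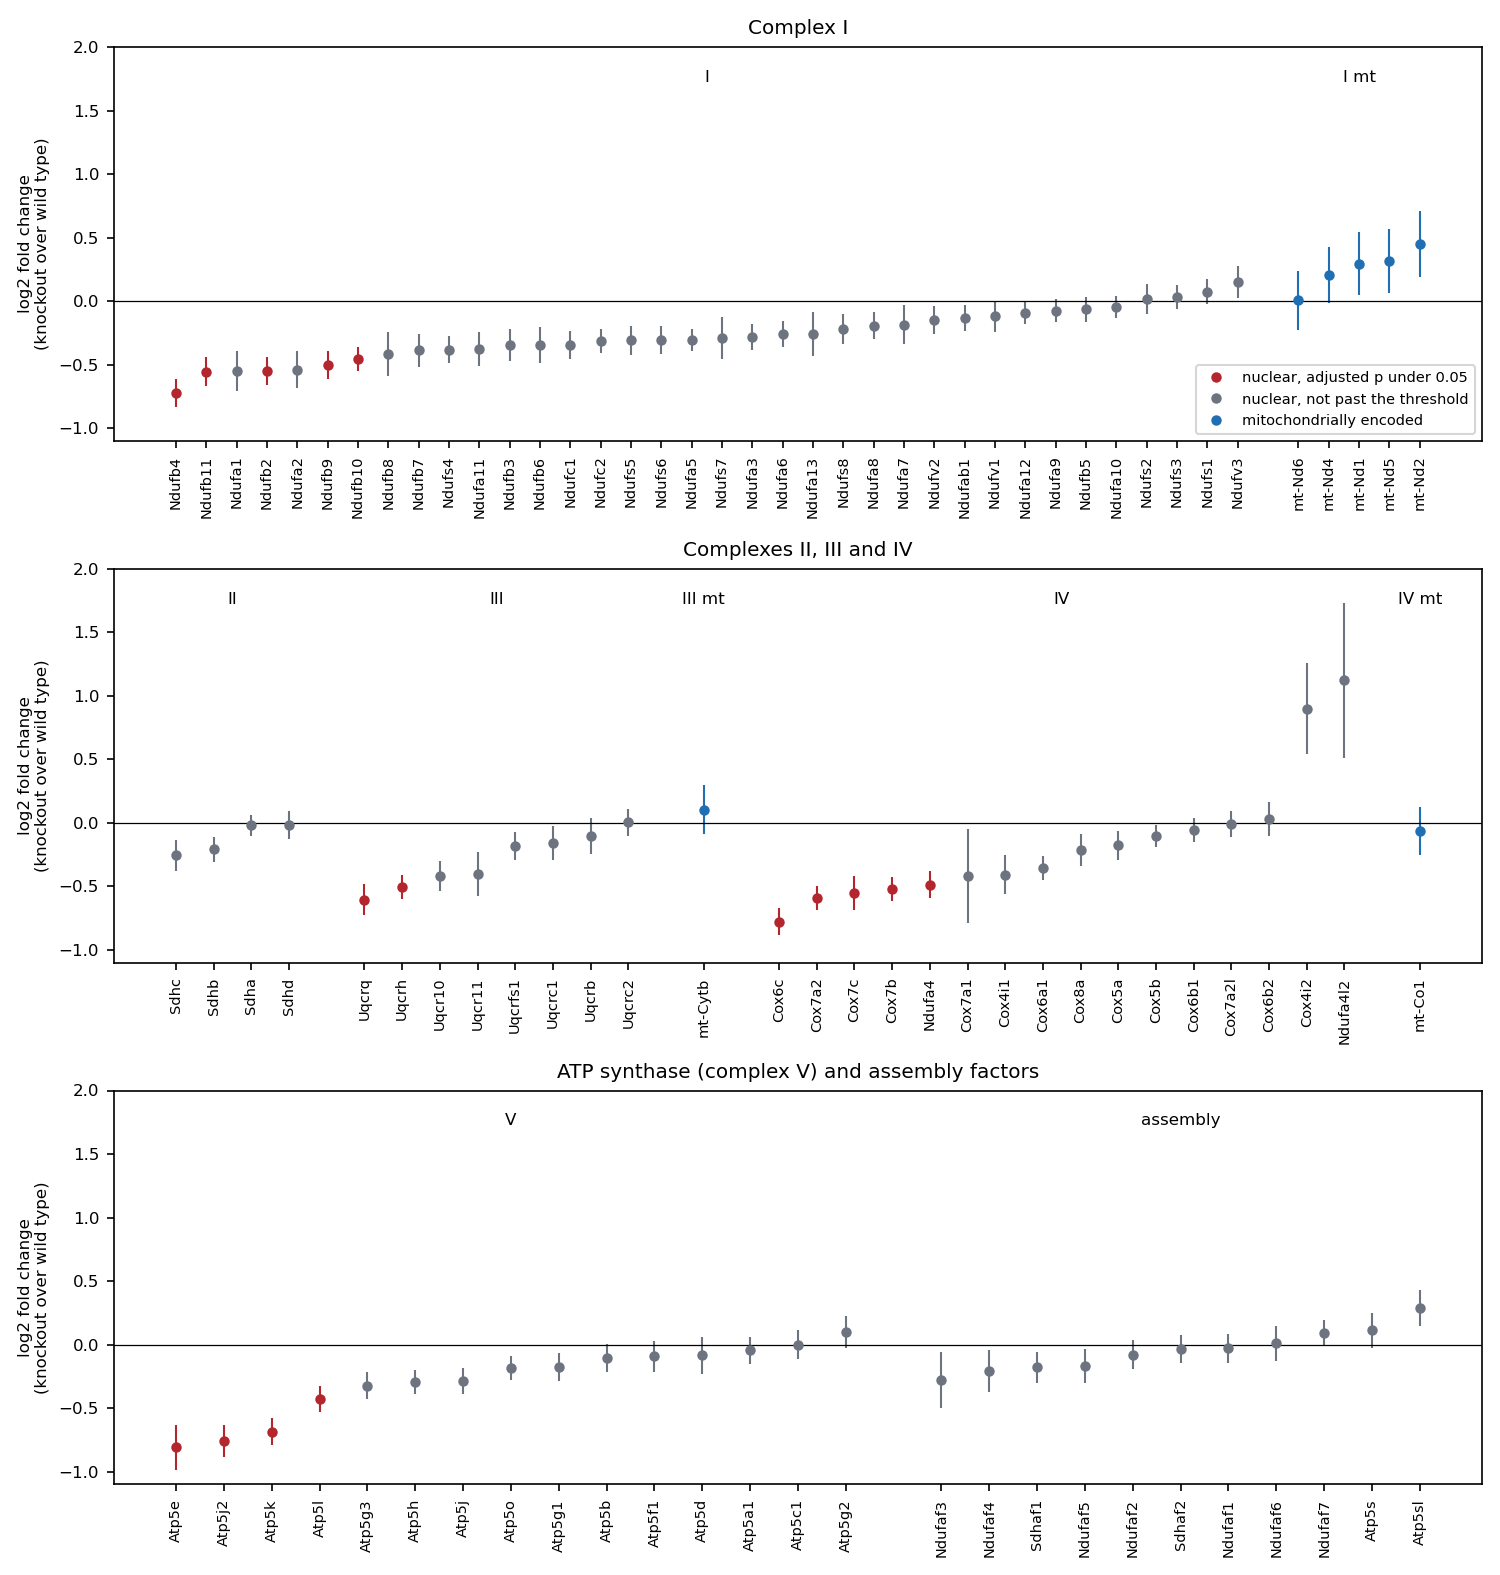
Log2 fold change of each member (knockout over wild type, vertical axis) with its standard error, by complex; red points are the 16 members with adjusted p under 0.05, grey points the other nuclear members and blue points the mitochondrially encoded ones. The red points are all below 0, and the 4 mitochondrially encoded members with 9 to 35 reads per library (mt-Co2, mt-Atp6, mt-Co3 and mt-Nd3) are not drawn.

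Markers of several cell types differed between the same libraries. The counts below stand beside 3.43% called lower and 1.59% called higher over all tested genes. In lists of this size a single call is too few to set apart from these shares. In bulk samples fewer cells of a type and less RNA per cell cannot be told apart. Of 15 erythroid markers 10 were lower in knockout, and their summed level was 50469 to 90788 CPM in wild type and 12462 to 16841 CPM in knockout. Of 7 macrophage markers 6 were lower (188 to 238 CPM and 114 to 138 CPM). Of 12 hepatoblast markers 1 was lower (6225 to 12997 CPM and 7729 to 9797 CPM). Of 8 endothelial markers 3 were higher (207 to 274 CPM and 280 to 363 CPM). Of 10 cardiac muscle markers 3 were higher, with sums of 80.8 to 148 CPM in wild type and of 416, 90.9 and 180 CPM in knockout replicates 3, 4 and 5. Of 10 pericyte and smooth muscle markers 1 was higher, and of 9 skeletal muscle markers tested 0 were called. No marker of these lists was at 0 in all libraries. The part of these differences in the results on subunits was not tested.

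Leaving out a library changed how many nuclear members were called. The 16 lower calls became 11, 18, 7 and 7 without wild type replicate 1, 2, 3 or 4, where 2.26%, 4.73%, 1.78% and 2.02% of all genes were called lower. They became 10, 12 and 3 without knockout replicate 3, 4 or 5, beside 2.92%, 1.48% and 0.706% of all genes. Cox6c, Ndufb4 and Atp5j2 kept an adjusted p under 0.05 in all 7 of these fits, Atp5k and Cox7a2 in 6, Uqcrh in 5, and Cox7b, Ndufb10, Ndufb11 and Ndufb2 in 4. Atp5e and Uqcrq kept it in 3, Ndufa4 in 2, and Ndufb9, Cox7c and Atp5l in 1. The log2 fold change of each of the 16 stayed below 0 in all 7 fits. With libraries scaled by their total count, the median of all genes moved to 0.14 and the calls over all genes split into 393 lower (2.42%) and 651 higher (4.01%). The nuclear subunits then had a median of -0.14, against -0.26 with TMM, which is -0.28 and -0.27 relative to the median of all genes. Under that scaling 8 of the 16 calls were left, those of Cox6c, Ndufb4, Atp5k, Cox7a2, Atp5j2, Cox7b, Uqcrh and Ndufa4.

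Complex I takes electrons from NADH and is the largest complex of the chain. Of its 36 nuclear subunits 5 fell, with a median log2 fold change of -0.30. All 5 are Ndufb subunits, which sit in the membrane arm, so that 5 of the 10 Ndufb members were called (median -0.44). Of the 13 complex I members whose name starts with Ndufa, Ndufab1 included, 0 were called (median -0.26). Ndufa4, which was called, is counted in complex IV. At an unadjusted p under 0.05 (edgeR), 9 Ndufb and 6 Ndufa members of complex I were lower, beside 11.8% of all genes. Ndufa1 (-0.55, adjusted p = 0.0753) and Ndufa2 (-0.54, adjusted p = 0.0637) fell more than the called Ndufb9 and Ndufb10. With DESeq2, Ndufa1, Ndufa2 and Ndufa5 were called lower too. The 7 nuclear core subunits, which carry the NADH site and the iron-sulphur clusters, had 0 calls, a median of -0.12 and a range of -0.29 (Ndufs7) to 0.08 (Ndufs1). An unadjusted p under 0.05 was reached by 20 of the 29 accessory subunits and by 0 of the 7 core subunits.

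Ndufb4 (chr16:37647170-37654453) had the largest change in complex I. It was at 201, 156, 164 and 167 CPM in wild type and at 96.9, 105 and 111 CPM in knockout, so the groups did not overlap. Its log2 fold change was -0.72 ± 0.11 (adjusted p = 0.00676, edgeR). Of the 50-base windows of its transcript 37.0% also occur in another annotated gene, most of them in Ndufb4c, and reads that fit both cannot be told apart. Ndufb11 (chrX:20615326-20617619) was at 164, 154, 160 and 176 CPM in wild type and at 92.7, 126 and 114 CPM in knockout (-0.56 ± 0.11, adjusted p = 0.0237). Ndufb2 (chr6:39592574-39603382) was at 80.5, 66.8, 66.2 and 74.1 CPM and at 42.7, 52.7 and 51.9 CPM (-0.55 ± 0.11, adjusted p = 0.0246). In both genes knockout replicate 3 was the lowest library and all 3 knockout libraries lay below wild type.

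Ndufb9 (chr15:58933756-58939488) was at 145, 124, 125 and 148 CPM in wild type and at 82.2, 103 and 102 CPM in knockout (-0.50 ± 0.11, adjusted p = 0.0338, edgeR). Ndufb10 (chr17:24722060-24724478) was at 92.6, 86.8, 83.2 and 90.2 CPM and at 58.9, 69.8 and 64.2 CPM (-0.46 ± 0.09, adjusted p = 0.0233). Both kept the groups apart, with a smaller gap than Ndufb4. Ndufa3, the nuclear complex I subunit with the highest level per kb of transcript in wild type (242 CPM per kb), was at 84.8, 85.4, 78.9 and 90.8 CPM in wild type and 62.2, 77.0 and 70.4 CPM in knockout. Its groups did not overlap either, and its log2 fold change of -0.28 ± 0.10 missed the threshold (adjusted p = 0.134).

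Complex II, succinate dehydrogenase, belongs to both the citric acid cycle and the respiratory chain and has no mitochondrially encoded subunit. Of its 4 subunits 0 were called, and their median log2 fold change was -0.11. Sdhd, a membrane anchor and the subunit with the highest level per kb (190 CPM per kb in wild type), was at 264, 200, 223 and 251 CPM in wild type and at 220, 238 and 237 CPM in knockout, with full overlap (-0.02 ± 0.11, adjusted p = 0.946, edgeR). Sdhc, the other anchor, had the largest difference in complex II and was at 112, 101, 100 and 123 CPM in wild type and at 76.5, 103 and 94.7 CPM in knockout (-0.25 ± 0.12, adjusted p = 0.256). Only knockout replicates 3 and 5 lay below all wild-type libraries in that gene.

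Complex III passes electrons from ubiquinol to cytochrome c. Of its 8 nuclear subunits 2 fell, with a median log2 fold change of -0.29. Both are among the 5 small accessory subunits, and 0 of the 3 nuclear core subunits were called (median -0.16). Uqcrh, the acidic hinge protein near cytochrome c1 (chr4:116066965-116075071), was at 347, 326, 327 and 322 CPM in wild type and at 213, 249 and 238 CPM in knockout (-0.50 ± 0.10, adjusted p = 0.0178, edgeR). It is also the complex III subunit with the highest level per kb, at 604 CPM per kb in wild type. Uqcrq (chr11:53427922-53430831) was at 119, 117, 120 and 150 CPM in wild type and at 71.4, 91.6 and 86.9 CPM in knockout (-0.60 ± 0.12, adjusted p = 0.0244). The wild-type libraries of Uqcrh lay close together, while in Uqcrq wild type replicate 4 stood above the other 3.

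Complex IV, cytochrome c oxidase, hands the electrons to oxygen. Of its 16 nuclear members 5 fell, with a median log2 fold change of -0.29, and all 5 are among the 12 accessory subunits that are not tissue isoforms or paralogs (median -0.38). Cox6c (chr15:35925886-35938246), a small membrane subunit, had the smallest p of all members. It was at 281, 229, 247 and 245 CPM in wild type and at 131, 156 and 152 CPM in knockout (-0.78 ± 0.11, adjusted p = 0.00564, edgeR). Even the highest knockout library lay far below the lowest wild-type one.

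The 3 called Cox7 subunits are single-helix membrane proteins. Cox7a2 (chr9:79755361-79759878) was at 318, 300, 321 and 318 CPM in wild type and at 190, 220 and 218 CPM in knockout (-0.59 ± 0.09, adjusted p = 0.00919, edgeR). Cox7b (chrX:106015700-106022450) was at 374, 327, 358 and 360 CPM and at 264, 240 and 237 CPM (-0.52 ± 0.10, adjusted p = 0.0162). In both the groups were well apart. Cox7c (chr13:86044816-86046904) was at 391, 303, 334 and 328 CPM and at 192, 247 and 254 CPM (-0.55 ± 0.13, adjusted p = 0.0406). Its wild-type and knockout libraries spread more, and 53.0% of its 50-base windows also occur in another annotated gene. Ndufa4 (chr6:11900292-11907497), named as a complex I subunit and later found in complex IV, had the highest level per kb in complex IV, at 704 CPM per kb in wild type. It was at 360, 305, 305 and 303 CPM in wild type and at 233, 208 and 241 CPM in knockout (-0.49 ± 0.11, adjusted p = 0.0303), with no overlap.

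ATP synthase has a catalytic head, a central and a peripheral stalk, a ring of c subunits and a set of small membrane subunits. Of its 15 nuclear members 4 fell, and their places in the enzyme differed. All 3 small membrane subunits named Atp5j2, Atp5k and Atp5l (subunits f, e and g) fell, with a median log2 fold change of -0.68. Of the 5 genes of the head and central stalk 1 fell (median -0.08), of the 3 c ring genes 0 (median -0.18) and of the 4 peripheral stalk genes 0 (median -0.23). Subunits e and g are known for holding ATP synthase dimers together.

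Atp5j2 (chr5:145183698-145192062) was at 247, 204, 217 and 228 CPM in wild type and at 108, 143 and 146 CPM in knockout (-0.76 ± 0.12, adjusted p = 0.00981, edgeR). Atp5k (chr5:108433244-108434448) was at 148, 138, 135 and 149 CPM and at 76.3, 100 and 89.9 CPM (-0.68 ± 0.11, adjusted p = 0.00800). In both, knockout replicate 3 was the lowest of the 7 libraries and the groups did not overlap. Atp5l (chr9:44912557-44920742) was at 339, 276, 291 and 327 CPM and at 224, 230 and 234 CPM (-0.43 ± 0.10, adjusted p = 0.0426). Its value is uncertain, since 84.9% of its 50-base windows also occur in another annotated gene, most of them in Gm10221.

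Atp5e (chr2:174461072-174464105), the epsilon subunit of the central stalk and the member with the largest fall, was at 274, 257, 224 and 257 CPM in wild type and at 97.6, 171 and 165 CPM in knockout (-0.81 ± 0.18, adjusted p = 0.0317, edgeR). Knockout replicate 3 was well below the other 2 knockout libraries. Atp5b, the catalytic beta subunit and the ATP synthase subunit with the highest level per kb (703 CPM per kb in wild type), was at 1325, 1204, 1366 and 1493 CPM in wild type and at 1210, 1334 and 1210 CPM in knockout. These overlapped (-0.11 ± 0.11, adjusted p = 0.629), and the value turned to 0.02 with total-count scaling.

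**Figure D2:**
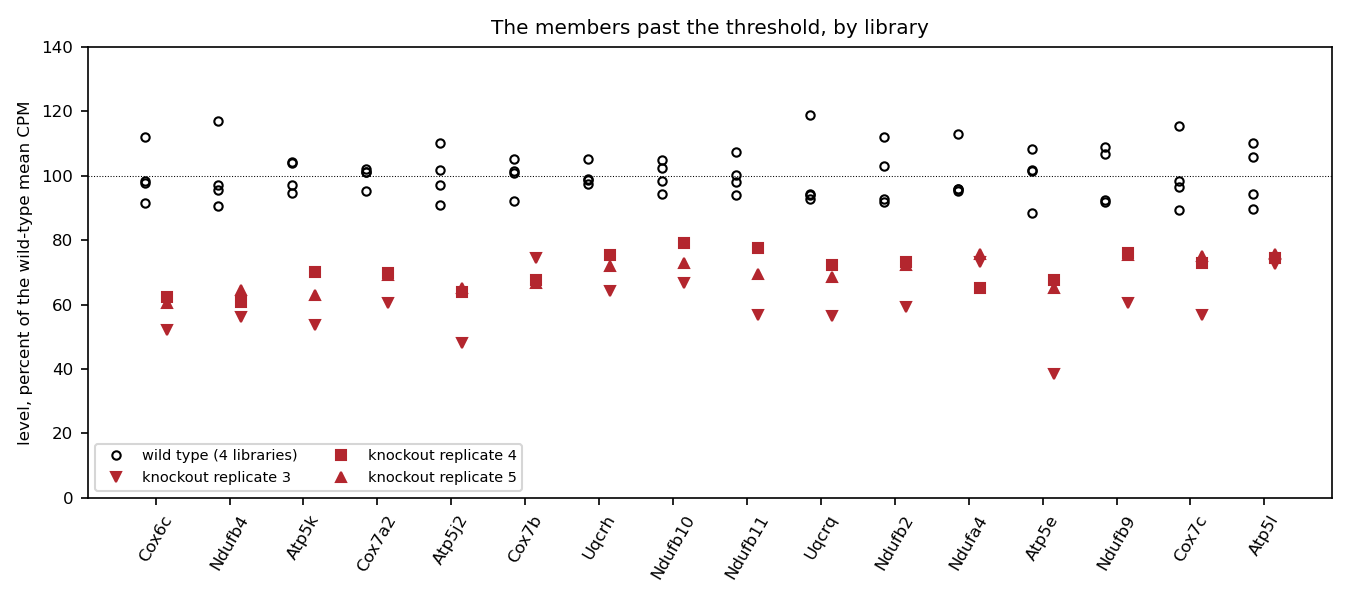
Level of each of the 16 called members in every library, as a percent of its wild-type mean CPM (vertical axis, starting at 0); open circles are the 4 wild-type libraries and red symbols the 3 knockout libraries. All red symbols lie below all circles of the same gene, and for most genes the lowest is knockout replicate 3.

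The 16 called genes lie on 11 chromosomes. Assembly factors help to build the complexes and are not part of them. Of the 11 assembly factors and genes of related name (Ndufaf1 to Ndufaf7, Sdhaf1, Sdhaf2, Atp5s and Atp5sl) 0 were called, beside 3.43% lower and 1.59% higher over all genes. Their log2 fold changes ranged from -0.28 to 0.29 with a median of -0.03, and their difference from the subunits was not tested.

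Only complexes I and III have nuclear members of both kinds, core and accessory. In complex I 5 of 29 accessory and 0 of 7 core subunits were called lower, and in complex III 2 of 5 and 0 of 3. The counts over several complexes come from partly different ones. Of the 46 nuclear accessory subunits of complexes I, III and IV 12 were called lower, with a median log2 fold change of -0.35. Of the 14 nuclear core subunits of complexes I, II and III 0 were called, with a median of -0.14. Over all genes 3.43% were called lower, a share at which 0 calls in 14 genes show no difference. Members are not replicates, so these counts are a description. The core subunits also have longer coding sequences than most accessory ones, and coding length went along with the fold change.

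The called members have coding sequences of 156 to 537 bases. In the class up to 300 bases, 10 of 20 nuclear subunits (median log2 fold change -0.51) and 41 of 249 non-members (16.47%, median -0.29) were called lower. From 300 to 600 bases it was 6 of 39 (median -0.29) and 116 of 1519 (7.64%, median -0.15). From 600 to 1000 bases it was 0 of 9 (median -0.18) and 118 of 2757 (4.28%, median -0.05). Short genes outside the set were also called lower more often than long ones. Across the 79 nuclear subunits Spearman's rho of fold change with coding length was 0.61, and across 14795 tested genes with a coding length it was 0.24. Genes are not independent replicates, and all points share the same 7 libraries.

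**Figure D3:**
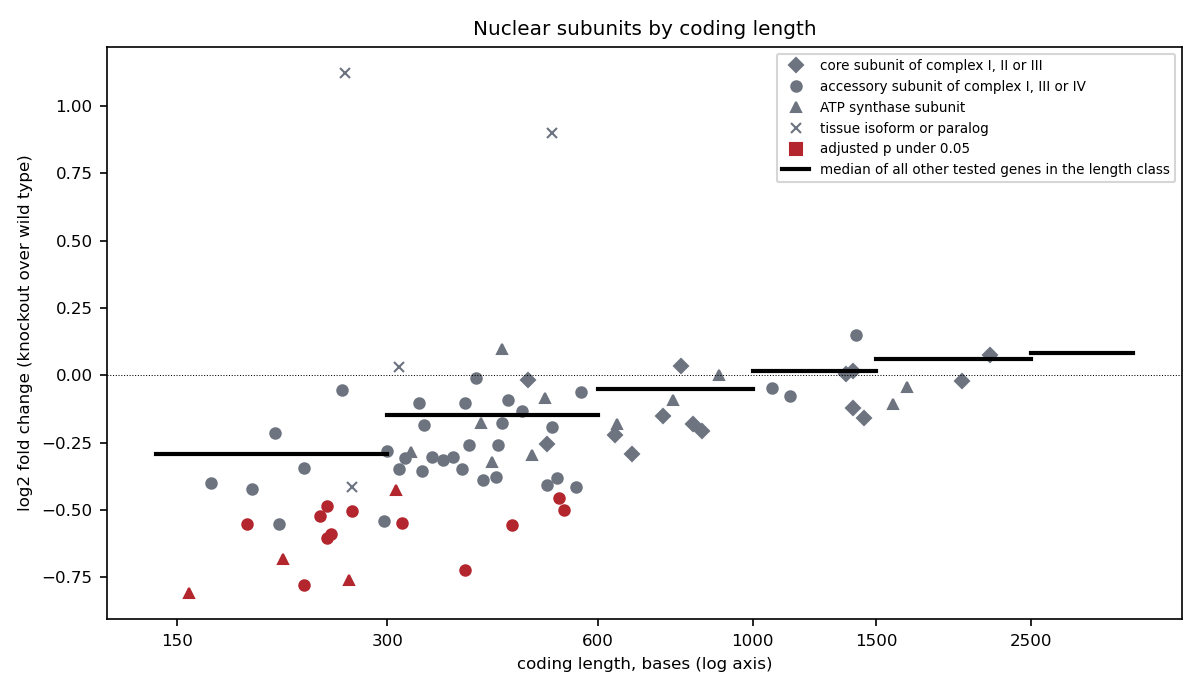
Log2 fold change (knockout over wild type, vertical axis) of the 79 nuclear subunits against the length of their coding sequence in bases (log axis); black bars are the medians of all other tested genes in the same length class. The red symbols, called lower, all lie at 537 bases or less, and below 1000 bases most subunits lie below the bar of their class.

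A correction of each library for transcript length and GC content, chosen after these values were seen, kept 15 of the 16 calls and gave 18 in all, beside 4.88% of all genes. It lost Atp5l and added Ndufa11, Ndufb7 and Uqcr10. With it the median of the nuclear subunits was -0.14 and that of all genes 0.01, and rho became 0.55 over the subunits and 0.11 over all genes with a coding length. The share of reads in no annotated gene was 4.89 to 5.94% in wild type and 6.75 to 7.61% in knockout, and its part in this relation was not tested.

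The mitochondrially encoded members are cut from long transcripts of both strands of mitochondrial DNA. Of the 11, 0 were called in either direction, beside 3.43% lower and 1.59% higher over all genes. An unadjusted p under 0.05 (edgeR) was reached by 0 of them, beside 11.8% lower and 9.98% higher. For the 7 that could be measured, the knockout libraries did not move together. In mt-Nd1, mt-Nd2, mt-Nd4 and mt-Nd5 knockout replicates 3 and 5 lay above all wild-type libraries and knockout replicate 4 below them. In mt-Nd2, a membrane core subunit of complex I (chrM:3914-4951), wild type was at 3205, 2197, 2853 and 2165 CPM and knockout at 4740, 1991 and 3952 CPM. This gave the largest log2 fold change of the 7, 0.45 ± 0.26 (adjusted p = 0.348, edgeR), with overlapping groups.

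The other complex I genes that could be measured had replicate 3 as the highest knockout library, with the exception of mt-Nd6. For mt-Nd1 the values were 6118, 4330, 5958 and 4778 CPM in wild type and 8311, 3708 and 7486 CPM in knockout (0.30 ± 0.25, adjusted p = 0.529, edgeR). For mt-Nd5 they were 2877, 2159, 2474 and 2017 CPM and 4206, 1759 and 2930 CPM (0.32 ± 0.25, adjusted p = 0.500), and for mt-Nd4 1765, 1379, 1556 and 1353 CPM and 2325, 1080 and 1828 CPM (0.20 ± 0.22, adjusted p = 0.635). Without knockout replicate 3 the fold changes of mt-Nd5 and mt-Nd4 turned to -0.02 and -0.06. The gene mt-Nd6, the only subunit read from the other strand, was at 30.7, 26.4, 46.2 and 34.9 CPM in wild type and at 24.6, 31.7 and 47.7 CPM in knockout (0.01 ± 0.23, adjusted p = 0.992). There knockout replicate 3 was the lowest library, not the highest.

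For mt-Cytb, the cytochrome b of complex III, wild type was at 4879, 3926, 4538 and 4145 CPM and knockout at 6174, 3245 and 4687 CPM (0.10 ± 0.19, adjusted p = 0.797, edgeR). For mt-Co1, the catalytic subunit of complex IV, wild type was at 8431, 7631, 9588 and 7708 CPM and knockout at 10291, 5667 and 8005 CPM (-0.06 ± 0.19, adjusted p = 0.882, and 0.06 with total-count scaling). In both genes the knockout libraries spanned the whole range of wild type and went past it on either side.

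The other 4 mitochondrially encoded members, mt-Co2, mt-Atp6, mt-Co3 and mt-Nd3, had only 9 to 35 reads in any library, where mt-Nd4, their neighbour on the same strand, had 48979 to 76898. Their reads were 9 to 19, 12 to 20, 14 to 26 and 13 to 35 per library. No fold change is given for them, since these counts are not a measure of the transcripts. Nearly identical copies of this stretch of mitochondrial DNA are annotated on the minus strand of chromosome 1, as 7 genes within chr1:24611535-24616197 (mm10), a span of 4663 bases. Of the 50-base windows of these 4 genes 100%, 99.5%, 99.9% and 98.0% also occur in an annotated nuclear transcript, namely Gm28661, Gm10925, Gm28437 and Gm28438 for most of them. The copies of mt-Co2, mt-Atp6 and mt-Co3 are 100% identical over their annotated length, and that of mt-Nd3 differs at 1 of 345 bases. The first 120 bases of mt-Nd3 and of its copy are shown because a 50-base read from most of this stretch fits both places. The base that differs is in capitals (T3C, counted from the first base of the gene, mt-Nd3 first).
mt-Nd3, chrM:9459-9578, plus strand: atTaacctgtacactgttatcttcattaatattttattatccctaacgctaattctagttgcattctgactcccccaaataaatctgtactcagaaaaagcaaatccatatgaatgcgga
Gm28438, chr1:24613000-24613119, minus strand: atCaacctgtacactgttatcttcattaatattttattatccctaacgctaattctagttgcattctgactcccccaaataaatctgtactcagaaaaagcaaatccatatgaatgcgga

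Reads aligned to more than 1 place were set aside by the counting, and they were 15.2 to 19.6% of reads in wild type and 11.3 to 14.7% in knockout. The share of windows also found in a nuclear transcript was 62.2% for mt-Nd4 and 51.1% for mt-Co1. It was 8.19% for mt-Nd2, 7.61% for mt-Nd5 and 0% for mt-Nd1, mt-Nd6 and mt-Cytb. A 50-base read from a shared window fits both places. The read length was not given in the sources used, so how many reads of each gene were set aside is not known. The remaining subunit genes of mitochondrial DNA, mt-Nd4l and mt-Atp8, are not members. These 2 genes had at most 3 and 4 reads per library, with 98.8% and 0% of their windows in a nuclear transcript. Only annotated transcripts were searched. The chromosome 1 copies of mt-Co2 and mt-Atp6 leave 233 bases between them, and mt-Atp8 starts between those genes on mitochondrial DNA. Its 0% therefore cannot show whether a copy lies in that gap.

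**Figure D4:**
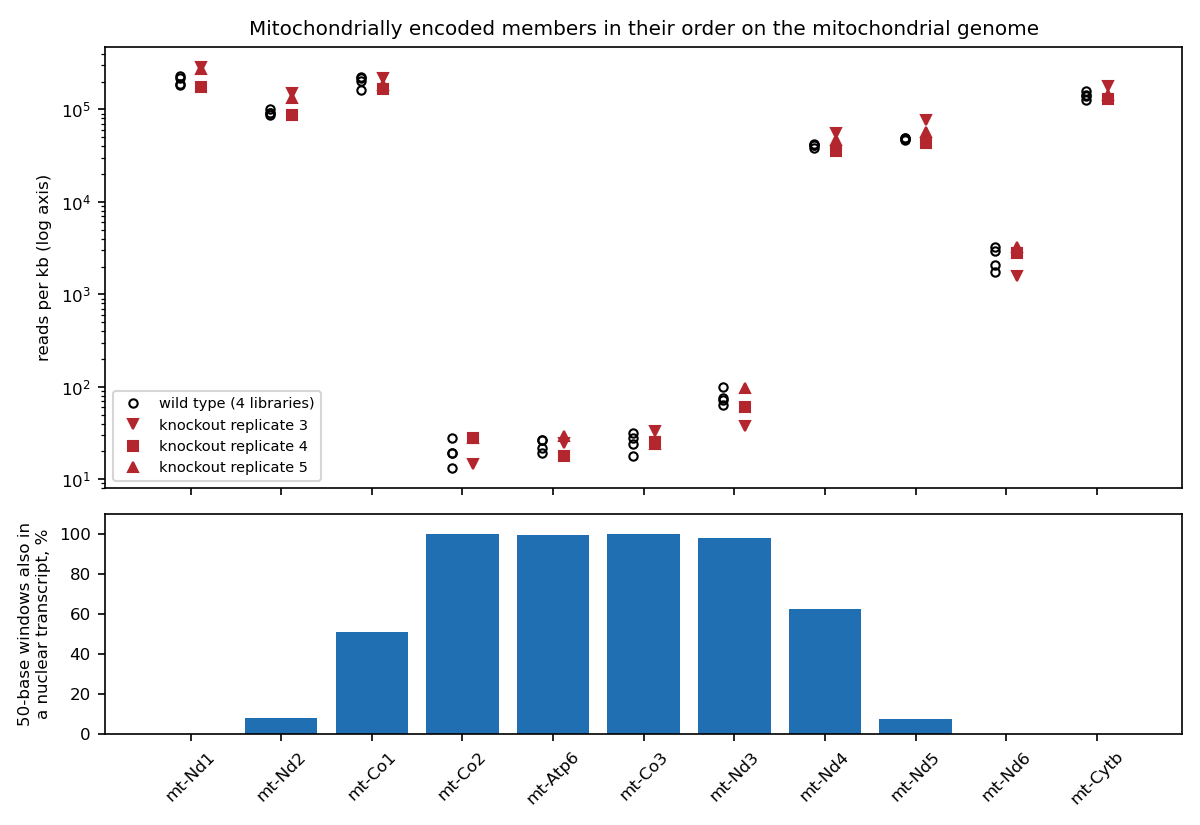
Upper panel, reads per kb of each mitochondrially encoded member (log axis, not scaled for depth) in the 4 wild-type libraries (open circles) and the 3 knockout libraries (red symbols), in the order of the genes on the mitochondrial genome; lower panel, percent of each gene's 50-base windows that also occur in an annotated nuclear transcript. The 4 genes at 98.0% or more have at most 101 reads per kb, and the other 7 have 1566 or more.

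The levels of each genome's members were also summed. The summed level of the 90 nuclear members was 15079, 13684, 14193 and 15523 CPM in wild type and 11476, 13054 and 12535 CPM in knockout, so all knockout libraries lay below. The mean of the log2 values in knockout minus that in wild type, called the log2 ratio below, was -0.24. With total-count scaling this log2 ratio was -0.12 and the groups overlapped. The summed level of the 11 mitochondrially encoded members was 27308, 21650, 27016 and 22203 CPM in wild type and 36073, 17485 and 28938 CPM in knockout. With 9 to 35 reads per library, mt-Co2, mt-Atp6, mt-Co3 and mt-Nd3 add almost nothing to this summed level, which is in effect that of the other genes. It also lacks any reads of mt-Nd4 and mt-Co1 that were set aside because they aligned to more than 1 place. The log2 ratio of this summed level was 0.11, or 0.23 with total-count scaling, and the knockout libraries held both the highest and the lowest value.

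The ratio of mitochondrially encoded to nuclear reads within a library does not depend on scaling. Like the sums, it lacks reads that aligned to more than 1 place. These were 15.2 to 19.6% of reads in wild type and 11.3 to 14.7% in knockout, and their part in the ratio was not tested. The ratio was 1.81, 1.58, 1.90 and 1.43 in wild type (1.68 ± 0.22, SD, n = 4) and 3.14, 1.34 and 2.31 in knockout (2.26 ± 0.90, SD, n = 3). Knockout replicates 3 and 5 lay above wild type and replicate 4 below it, so the groups overlapped. The log2 ratio, again a difference of mean log2 values, was 0.35. Leaving out 1 library gave 0.07 to 0.69, the low end with knockout replicate 3 removed and the high end with replicate 4 removed. The ratio of the median level per kb, without the 4 genes of few reads, was 20.2, 15.7, 20.9 and 14.2 in wild type and 46.6, 16.4 and 32.2 in knockout, a log2 ratio of 0.73. By that measure knockout replicate 4 lay inside the wild-type range. Knockout replicate 3, with the highest ratio, also had the lowest nuclear sum and the highest cardiac muscle marker sum, and the part of those markers was not tested.

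Among the complexes, the summed nuclear level fell short of wild type most in complex IV. It was 3128, 2807, 2896 and 3077 CPM in wild type and 2122, 2408 and 2315 CPM in knockout, a log2 ratio of -0.38, and all knockout libraries lay below under each of the 4 scalings tried. The log2 ratios were -0.26 for complex III, -0.25 for complex I and -0.19 for complex V, with no overlap under TMM and with overlap under total-count scaling. For complex II it was -0.09 with overlapping groups, and 0.03 under total-count scaling.

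**Figure D5:**
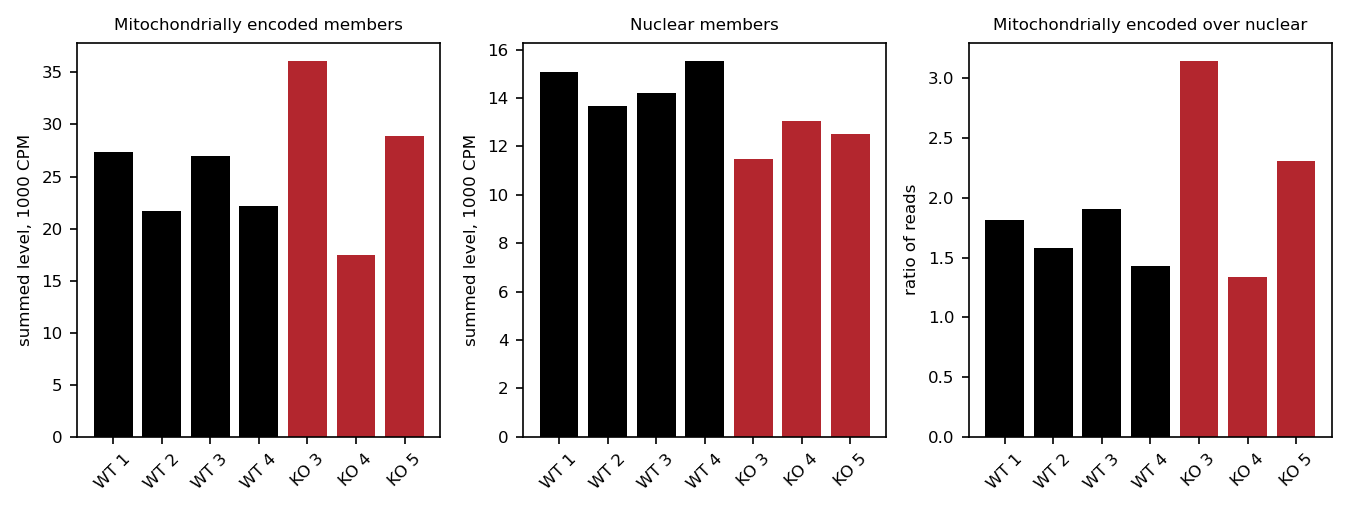
Summed level of the mitochondrially encoded members and of the nuclear members in units of 1000 CPM, and the ratio of their reads, in each library (WT wild type, KO knockout; bars start at 0). The nuclear sums of all 3 knockout libraries lie below those of wild type, while the mitochondrially encoded sum and the ratio are high in knockout replicates 3 and 5 and low in replicate 4.

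Some subunits have another form made in other tissues or states. Cox4i1, the general form of subunit 4, was at 370, 367, 331 and 441 CPM in wild type and at 222, 338 and 293 CPM in knockout (-0.41 ± 0.15, adjusted p = 0.154, edgeR). Cox4i2, the form known from lung and from low oxygen, was at 1.39, 2.66, 1.92 and 2.09 CPM in wild type and at 1.75, 5.58 and 3.93 CPM in knockout (0.90 ± 0.36, adjusted p = 0.178). It was high in knockout replicates 4 and 5 only, and it was called higher in the fit without knockout replicate 3, as were 1.49% of all genes there. Ndufa4l2, the paralog of Ndufa4 known as a target of hypoxia, had the same order of knockout libraries, with 0.47, 2.85, 2.49 and 2.44 CPM in wild type and 1.15, 8.34 and 4.05 CPM in knockout (1.12 ± 0.61, adjusted p = 0.317). Both were far below their general forms in every library, and both missed the threshold.

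For subunit 6a, Cox6a1 was at 149, 142, 154 and 167 CPM in wild type and at 111, 128 and 119 CPM in knockout, with no overlap (-0.36 ± 0.09, adjusted p = 0.0590, edgeR). The muscle form Cox6a2 is not in the authors' table and is no member. It was at 0.14 to 0.32 CPM in 6 libraries and at 2.30 CPM in knockout replicate 3, where Myh6, the cardiac myosin heavy chain, was at 37.9 CPM against 0.22 to 0.78 CPM in wild type. Myh6 was also above wild type in knockout replicates 4 and 5, at 2.18 and 11.4 CPM, where Cox6a2 was at 0.24 and 0.29 CPM. For subunit 6b, Cox6b1 was at 264, 232, 238 and 261 CPM in wild type and at 260, 231 and 228 CPM in knockout (-0.06 ± 0.10, adjusted p = 0.785). Cox6b2, known from testis, was at 24.4, 18.1, 24.7 and 22.7 CPM and at 21.6, 25.5 and 21.6 CPM (0.03 ± 0.13, adjusted p = 0.924). Both forms of 6b overlapped between the groups, and the sign of each turned in at least 1 other fit.

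For subunit 7a, the muscle form Cox7a1 was at 0.47, 1.41, 1.07 and 1.03 CPM in wild type and at 0.57, 0.90 and 0.77 CPM in knockout (-0.42 ± 0.37, adjusted p = 0.559, edgeR). Cox7a2l, which joins complexes III and IV into supercomplexes, was at 157, 157, 137 and 165 CPM and at 135, 166 and 158 CPM (-0.01 ± 0.10, adjusted p = 0.971, and 0.11 with total-count scaling). Cox7a2 was thus the called form of the 3. Cox8a was at 146, 148, 160 and 180 CPM in wild type and at 122, 164 and 123 CPM in knockout (-0.22 ± 0.13, adjusted p = 0.357). The forms Cox8b, Cox8c and Cox7b2, which are no members, had at most 3 reads in any library.

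The c ring protein of ATP synthase is encoded by 3 genes whose mature products are the same. Atp5g1 was at 118, 132, 142 and 158 CPM in wild type and at 115, 132 and 119 CPM in knockout (-0.18 ± 0.11, adjusted p = 0.389, edgeR). Atp5g3 was at 344, 314, 328 and 308 CPM and at 225, 289 and 262 CPM with no overlap (-0.32 ± 0.11, adjusted p = 0.119). Atp5g2 was at 148, 173, 165 and 193 CPM and at 152, 207 and 186 CPM (0.10 ± 0.13, adjusted p = 0.699). The sum of the 3 was 631 ± 21.2 CPM in wild type (SD, n = 4) and 562 ± 68.1 CPM in knockout (SD, n = 3), with overlapping libraries. Atp5g2 (chr15:102662864-102672352) lies 162.8 kb from the deleted gene Pcbp2 on the same chromosome. All of its 50-base windows (100%) and 56.2% of those of Atp5g1 also occur in another annotated gene, so their levels are uncertain.

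Sequence shared with other genes was found in called and other nuclear members. Of 89 nuclear members whose transcript could be matched, the 16 called ones had a median of 5.79% of windows in another annotated gene, and 5 had none. The 73 others had a median of 0.10%, and 35 had none. More than 50% of the windows were shared in 2 called members (Atp5l and Cox7c) and in 5 others. The search covered both strands and did not leave out genes that overlap a member at the same place. A window shared with such a gene does not mean that a read fits 2 places, and these cases were not separated. Where a read did fit 2 places it was set aside, so a low count in such a gene can miss part of its transcript.

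Promoters were compared for letters known from respiratory genes, namely the motifs of NRF1, of ETS factors such as GABP, and of YY1, searched on both strands in the RefSeq windows of 300 bases (GRCm38.p6, 250 before to 50 after the start). Of the 90 nuclear members 76 matched, with 82 windows. The NRF1 letters GCATGCGC were in 14.6% of these windows and in 2.71% of all 32851 windows. The YY1 letters AAGATGGCG were in 11.0% and 1.4%, and the ETS letters CCGGAAGT in 6.10% and 3.89%. Among the 13 called members that matched, 2 held the NRF1 letters, 1 the ETS letters and 1 the YY1 letters. None of the 3 motifs contains another, and the NRF1 letters can match on both strands at the same place. A match is a description of the letters, not a site. The stretches before the RefSeq start of the 2 called members with a match within 150 bases of it are shown to place the motif, in capitals, in its context. That of Atp5k was cut to 121 bases and stops short of the RefSeq start. Its motif begins at position -50 from that start, and most of it lies inside the GENCODE coordinates of Atp5k given above.
Atp5k, chr5:108434429-108434549, minus strand, NRF1 letters on both strands: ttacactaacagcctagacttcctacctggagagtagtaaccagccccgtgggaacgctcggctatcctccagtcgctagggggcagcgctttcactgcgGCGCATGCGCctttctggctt
Uqcrh, chr4:116075071-116075220, minus strand, ETS letters on the other strand: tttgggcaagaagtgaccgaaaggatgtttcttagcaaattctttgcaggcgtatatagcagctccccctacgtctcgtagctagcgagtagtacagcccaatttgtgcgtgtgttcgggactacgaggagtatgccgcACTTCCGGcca

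Other genes of the pathway were read from lists that were drawn up with earlier results of these data known. Of 7 subunits or partners outside the name rule 4 fell and 0 rose (median log2 fold change -0.47), beside the 3.43% of all genes. They were Usmg5 and 2010107E04Rik, small proteins of the ATP synthase membrane part, Atpif1, which inhibits ATP hydrolysis by the enzyme, and 1110001J03Rik. Usmg5 was at 439, 340, 346 and 364 CPM in wild type and at 263, 218 and 253 CPM in knockout (-0.60 ± 0.12, adjusted p = 0.0226, edgeR). Atpif1, known for a role in haem synthesis in erythroblasts, was at 504, 388, 467 and 446 CPM and at 351, 312 and 317 CPM (-0.47 ± 0.11, adjusted p = 0.0457). In both, all knockout libraries lay below wild type.

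Of 22 complex IV assembly factors 2 fell (9.09%, beside 3.43% of all genes) and 0 rose (median -0.16). Pet100 was at 56.9, 42.9, 46.2 and 46.7 CPM in wild type and at 23.9, 24.1 and 29.2 CPM in knockout (-0.90 ± 0.13, adjusted p = 0.00595, edgeR), and Coa6, which serves copper delivery, fell by 0.54 on the log2 scale (adjusted p = 0.0380). Of 15 genes of iron-sulphur cluster assembly 2 fell (13.3%, beside the same 3.43%) and 0 rose (median -0.31). Glrx5, a glutaredoxin needed for cluster assembly and for red cell formation, was at 244, 171, 214 and 214 CPM and at 108, 126 and 116 CPM (-0.85 ± 0.13, adjusted p = 0.00656), and Isca1 fell by 0.74 (adjusted p = 0.0257). Of 18 genes of mitochondrial RNA stability and processing 1 fell, the oligoribonuclease Rexo2 (-0.67 ± 0.12, adjusted p = 0.0143), and 0 rose. That is 5.56% of the list, beside 3.43% of all genes, and the list's median was 0.06. These genes and the erythroid markers were lower in the same libraries, and the part of the erythroid share in them was not tested.

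The remaining lists had 0 calls in either direction. They were 9 assembly factors of complex I (median 0.03), 5 of complex III (-0.01) and 4 of ATP synthase (-0.07), 15 genes of mitochondrial DNA and transcription (0.06), 12 nuclear regulators of respiratory genes (0.05), 16 of the citric acid cycle (0.03) and 12 of coenzyme Q synthesis (0.00). At an unadjusted p under 0.05, edgeR gave 1 lower in complex III assembly, 1 lower and 2 higher among the regulators, 1 lower in the citric acid cycle, and 0 in the other 4 lists.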

How the data were processed

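The members and all gene lists were chosen with earlier results of these data known. Per the labels, Trizol was used for total RNA and the TruSeq stranded kit for messenger RNA libraries. The submitters' processing notes name cutadapt 1.4.2, TopHat2, HTSeq, DESeq2, DESeq and the build mm10; their settings, the strand option and the annotation release were not given there. The authors deposited raw counts of reads per gene for each library. The authors' deposited table holds a mean normalized count (signal), a log2 fold change, a test score and a p-value per gene; it was used for names and for the number of members it calls.

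HTSeq's summary lines were left out of library sizes; reads in no gene were 4.89 to 7.61% and ambiguous reads 0.447 to 0.536% of all reads. Gene coordinates, transcript and coding lengths came from GENCODE M21 (mm10, identifiers matched without version), which held all 101 members. Tests were run with edgeR 4.0.16 in R 4.3.3: filterByExpr kept 16226 genes and removed 22698, TMM factors were 0.917 to 1.07, and the quasi-likelihood test compared the groups over the 7 libraries with no covariate, two-sided, with Benjamini-Hochberg adjustment over all tested genes. The fit was tested on simulated data. Sums and ratios got no test. Values given per library are those of all called members, all mitochondrially encoded members, in each complex the subunit of highest level per kb and of largest change, and the isoform families; of each other list the 3 members with the smallest p could be named, and called members beyond these were added after their values were seen. Alternatives were RLE factors, total-count scaling, TMM without mitochondrial or globin genes, no filter, at least 5 CPM in 3 libraries, limma-voom (limma 3.58.1), DESeq2 1.42.0, a replicate block, each library left out and, chosen after seeing the data, a correction for transcript length and GC content.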

Additional observations from a re-analysis of the deposited data

Results flagged for a closer look

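Of the 42 sets of 4 wild-type values checked, 3 had a library far from the other 3 by Dixon's test, which flags about 1 in 20 sets by chance. Cox7a2 was at 299.5 CPM in wild type replicate 2 and at 318 to 321 CPM in the other 3. Uqcrq was at 150.2 CPM in wild type replicate 4 and at 117 to 120 CPM in the other 3. Ndufa4 was at 360 CPM in wild type replicate 1 and at 303 to 305 CPM in the other 3. All 3 genes are among those called lower in knockout, and their knockout libraries lay below all 4 wild-type ones.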

How the results depend on the processing

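Nuclear members called lower numbered 16 with RLE factors, TMM without mitochondrial or globin genes, the 5 CPM filter and limma-voom, 18 with no filter and with the length and GC correction, 8 with total-count scaling and 25 with DESeq2. Leaving out each library in turn gave 3 to 18, with 0 to 1 higher. By complex, lower calls without a library ranged from 1 to 6 in I, 0 to 2 in III, 1 to 6 in IV and 1 to 4 in V. With total-count scaling complexes I, III and V had 1, 1 and 2 lower calls, and with DESeq2 complex I had 10. Over all genes, lower and higher calls were 1052 and 614 with DESeq2, and higher calls were 651 with total-count scaling and 566 with the length and GC correction. Without a library they ranged from 116 to 753 and from 24 to 418. The log2 ratio of the nuclear sums became -0.12 with total-count scaling. The cause of these shifts was not tested.

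The labels do not say that equal replicate numbers mark a pair, and only 2 numbers occur in both groups. In a fit with a block per number, the group difference rests on replicates 3 and 4 alone. The libraries of the other numbers add nothing to it, so its counts do not compare like with like. Deviations from the group means correlated by 0.32 (replicate 3) and 0.26 (replicate 4) between equal numbers. Between unequal numbers the correlation was -0.33 (wild type 3 with knockout 5) to 0.15 (wild type 1 with knockout 5). Deviations cancel out within a group, so these values are not independent. A fit with the replicate block called 1204 genes lower and 852 higher, 38 nuclear members lower (22, 1 and 4 in complexes I, II and III), 3 of them core subunits (Ndufs7, Ndufs8 and Sdhc), and 1 mitochondrially encoded member, mt-Nd6 (-0.52, adjusted p = 0.0138, edgeR). It also turned Cox6b2 to -0.0097 and Atp5g2 to -0.0066.

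Values that changed sign, none past the threshold in the first fit, were mt-Co1 (0.060), Sdhd (0.11), Atp5b (0.019), Cox6b1 (0.069) and Cox7a2l (0.11) with total-count scaling, and Sdhd (0.11), Cox6b1 (0.11), Cox7a2l (0.12) and mt-Nd6 (-0.011) with the length and GC correction. The change of mt-Nd6 was -8.8e-05 with RLE factors, -0.0044 with no filter, -0.017 with limma-voom and -4.4e-05 with DESeq2. Without 1 library, ranges that crossed 0 were -0.29 to 0.13 for mt-Co1, -0.058 to 0.46 for mt-Nd4, -0.023 to 0.58 for mt-Nd5, -0.29 to 0.20 for mt-Nd6, -0.14 to 0.31 for mt-Cytb, -0.097 to 0.043 for Sdhd, -0.072 to 0.077 for Cox6b2, -0.070 to 0.074 for Cox7a2l, -0.0055 to 0.21 for Atp5g2 and -0.12 to 0.40 for the mitochondrially encoded sum. The 4 mitochondrially encoded genes with 9 to 35 reads got no fold change.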
